A study of Drosophila melanogaster with 2 samples.

Results

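The genes described here are 8 Drosophila melanogaster genes for basic helix-loop-helix (bHLH) transcription factors of neural precursors: ac, sc, l(1)sc, ase, ato, amos, cato and dpn. They were listed by name, and all 8 were found among 13945 protein-coding genes. Binding of Gcm (glial cells missing), which switches neural cells to the glial fate, was mapped over them by chromatin immunoprecipitation and sequencing (ChIP-seq). The single group held 2 biological replicates, numbered 1 and 3, of whole embryos of strain gcm-GFP, aged 0 to 16 hours and of mixed sex. The line carries Gcm with green fluorescent protein at its C-terminus, precipitated with an antibody against that protein, and both replicates share 1 donor label. Whole embryos of all these ages were pooled, so a low peak can come from few cells or from weak binding in many, and the lists cannot tell these apart.

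Proneural proteins such as Achaete, Scute, Lethal of scute and Atonal pair with the widely expressed bHLH protein Daughterless and bind E boxes, and they give groups of ectodermal cells the competence to become neural precursors. Notch signalling then limits that competence to single cells through repressors of the Hairy/Enhancer of split family. Neuroblasts that arise in this way express Asense and Deadpan, and some of their progeny become glia under the control of gcm. Of the genes, ac, sc and l(1)sc are the proneural genes of the Achaete-Scute complex, and ase is the complex's gene for dividing precursors. In the Atonal family, ato founds chordotonal organs and photoreceptors, amos founds olfactory and multidendritic neurons, and cato acts in sensory precursors after the proneural genes. dpn belongs to the Hairy/Enhancer of split family and marks neuroblasts, so it is a repressor gene and not a proneural gene.

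No summit of the IDR-thresholded list lay at any of the 8 genes. IDR stands for irreproducible discovery rate, a measure of how well peak ranks repeat between replicates. The list's 5707 peaks are also exactly the 5707 highest of the pooled list, so belonging to it amounts here to a pooled height of at least 190, and not every peak in it has a matching summit in both replicates. A gene's territory was its body plus 2 kb upstream, and a gene was bound when a summit lay in it. The share of 0 of 8 has an exact Clopper-Pearson 95% interval of 0 to 36.9%. Of all protein-coding genes 28.2% were bound in this list, and of the 7743 genes whose territories were as long as those of the 8 genes (2712 to 5360 bp) 21.4% were. Both shares lie within the interval, so a difference from other genes was not detectable with 8 genes, of which 4 are neighbours.

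In the longer lists, which hold 30000 peaks each and reach down to weak ones, 6 of the 8 genes had a summit. The pooled list, called on both replicates together, had 12 summits at ac (1), sc (2), l(1)sc (1), ase (4), ato (2) and dpn (2). The background share of genes bound in it was 51.2%, or 44.9% among genes of the same territory length, and the interval of 6 of 8 ran from 34.9 to 96.8%. Replicate 1 had summits at 5 of 8 genes, against 54.0% of all genes, and replicate 3 at 6 of 8, against 53.1%. These counts are near the background. amos and cato had no summit in any of the 4 lists, and ato had none in replicate 1.

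**Figure D1:**
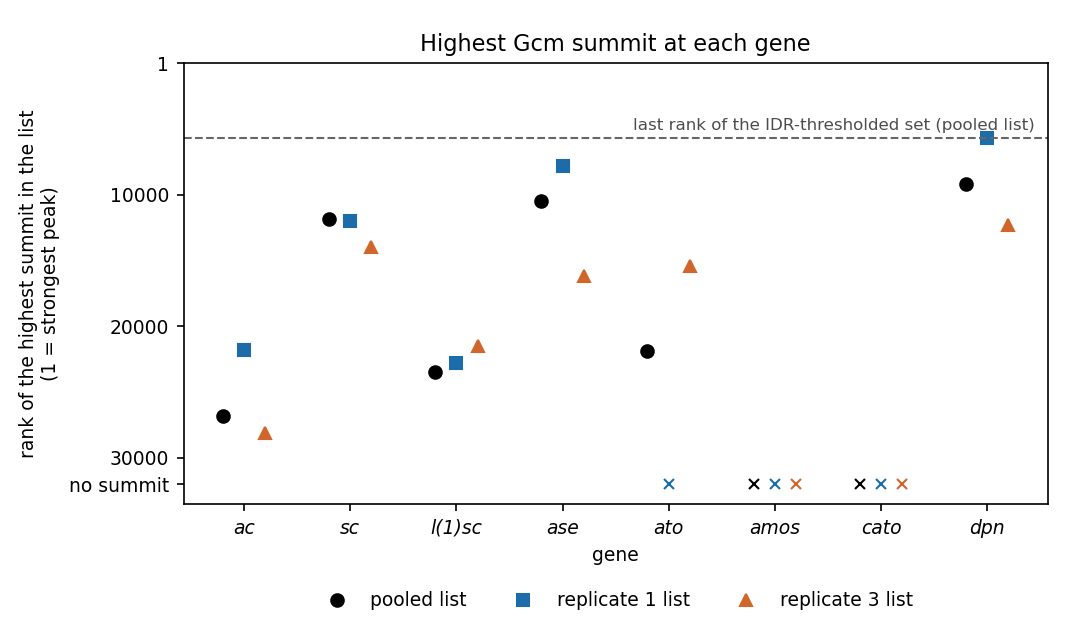
Rank of the highest summit at each of the 8 genes in the pooled list (circles), replicate 1 (squares) and replicate 3 (triangles), with rank 1 at the top and crosses where a list had no summit. The dashed line is rank 5707, the last of the IDR-thresholded set in the pooled list; only dpn in replicate 1, at rank 5694 of that replicate's own list, reaches it.

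The summits at the 8 genes were low. Peak height is the signal value the authors' caller gave each peak, and its scale is not shared by the lists. Read depth is unknown. The 12 pooled summits ranged from 41.6 to 132, with a median of 55.1, against a median of 85.0 over the whole pooled list. Their ranks ran from 9225 to 27979 of 30000. Over the 24293 pooled summits below the IDR-thresholded set the median height was 70.9. The lowest height in the IDR-thresholded list was 190, so with no such summit each of the 12 had to lie below it. A deposited q-value of 0.05 or less was held by 4 of the 12, those of sc, ase (2 summits) and dpn, and by 61.2% of all pooled peaks. The 61.2% includes the IDR-thresholded peaks, 100% of which had such a q-value, so it is not a like share for the 12.

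The Achaete-Scute complex lies near the tip of the X chromosome, where all its genes are on the plus strand. At ac (FBgn0000022, chrX:370031-370947) the pooled summit lay 7 bp inside the gene, in the 5' UTR, with a height of 43.8 and rank 26835. Replicate 1 had its summit 10 bp upstream of the start, with height 35.01 and rank 21769. Replicate 3 had one 388 bp upstream, with height 22.5 and rank 28137. The replicate summits at ac were therefore 378 bp apart, and both were among the weaker peaks of their lists.

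At sc (FBgn0004170, chrX:396060-397497) the higher pooled summit lay 54 bp downstream of the start, in the 5' UTR, with a height of 106 and rank 11840. Replicate 1 had a summit 1 bp from it with height 62.4 and rank 12038. In replicate 3 the only sc summit lay in the coding exon, 210 bp from the start, with height 45.2 and rank 13993. The second pooled summit, at 256 bp and height 53.9, matched this one to 46 bp. The replicate summits at sc lay 157 bp apart, and the peak of replicate 1 covered the gene start while that of replicate 3 began just inside the gene.

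At l(1)sc (FBgn0002561, chrX:409721-410817) the pooled summit lay 768 bp upstream with a height of 51.7 and rank 23508. Replicate 1 had 3 summits, 750 bp upstream (33.3), 27 bp upstream (29.4) and 1045 bp downstream of the start in the 3' UTR (28.2). Replicate 3 had 1, in the coding exon, with height 30.2 and rank 21531. No position was shared by the replicates at this gene, whose best rank in replicate 1 was 22791.

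ase (FBgn0000137, chrX:460747-463176) had the most summits of the 8 genes. The highest pooled summit lay in its coding exon, 516 bp from the start, with a height of 119 and rank 10469. Replicate 1 had a summit 76 bp from it, with height 88.0 and rank 7821. Replicate 3 had one 35 bp from it, with height 39.7 and rank 16212. This was the 1 summit of the 12 at the 8 genes that was found in both replicates within 100 bp. The others at ase were 1416 bp upstream (58.0), 307 bp upstream (70.4) and 715 bp downstream of the start (49.2), each found in at most 1 replicate. The first of these was seen in replicate 3, the second in replicate 1 and the third in neither. Replicate 1 had a further summit 463 bp upstream, with height 60.8 and rank 12338. The coding summit is shown with 50 bp on either side, on the plus strand of dm6, and it holds no Gcm word. The replicate summits there lay 111 bp from each other, on either side of the pooled one.
ase, chrX:461213-461313: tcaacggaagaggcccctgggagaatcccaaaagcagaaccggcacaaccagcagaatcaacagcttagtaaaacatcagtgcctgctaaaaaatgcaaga

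Taken as 1 locus, from 2 kb upstream of ac to the end of ase (chrX:368031-463176, 95.1 kb), the complex held 2 IDR-thresholded summits and 34 pooled summits. Both IDR-thresholded summits lay between the genes, in introns of CG32816, a long gene on the opposite strand that spans the whole complex. Their density was 2.10 per 100 kb (exact Poisson 95% interval 0.255 to 7.59), against 3.82 over the X chromosome. The density of pooled summits was 35.7 per 100 kb (24.7 to 49.9) in the locus and 23.1 over X. With summits less than 250 bp apart counted once, the pooled densities were 31.5 in the locus and 19.9 over X. The median pooled height in the locus was 57.4, against 85.0 for the whole list, so the locus had many low peaks. Replicate 1 had 31 summits in the locus, or 32.6 per 100 kb (22.1 to 46.2), against 22.8 over X. Replicate 3 had 27, or 28.4 per 100 kb (18.7 to 41.3), against 22.1 over X. The pooled interval lay above the X value, while the interval of each replicate included it. Intervals cover counting error only, and neighbouring peaks are not independent.

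**Figure D2:**
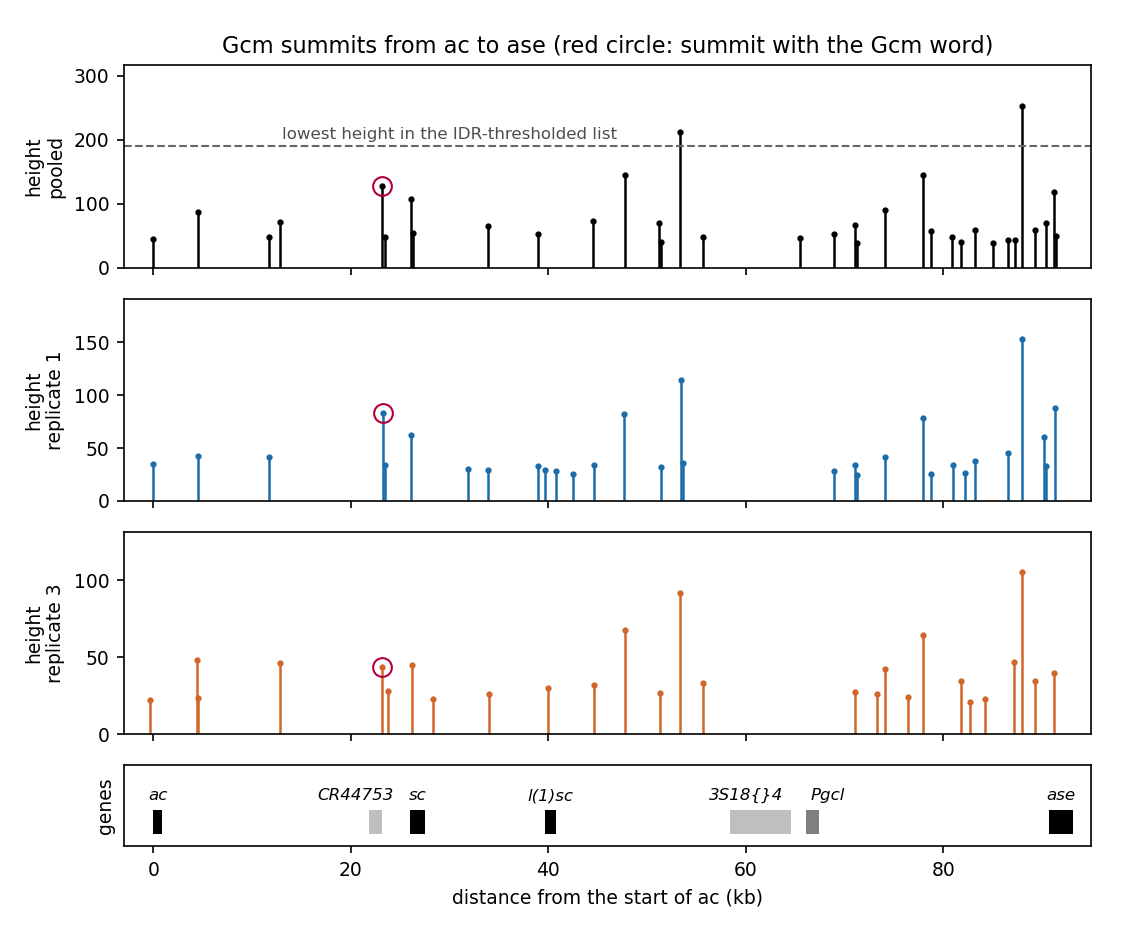
Heights of summits in the pooled list, replicate 1 and replicate 3 (top to bottom) by distance from the start of ac in kb, with the genes drawn below to scale (black, the genes described here; dark grey, Pgcl; light grey, a noncoding RNA gene and a transposon). The dashed line in the top panel is the lowest IDR-thresholded height, 190; the 2 pooled summits above it, with heights of 213 and 253, are also the highest of the locus in each replicate.

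The stronger IDR-thresholded summit (chrX:457849-458067) had a height of 253 and rank 3777 of 5707, and stood 2781 bp upstream of ase. It lay 781 bp beyond the territory of ase. Its height was 153 in replicate 1 (rank 3457) and 105 in replicate 3 (rank 4449), and the replicate summits lay 3 and 70 bp from it. The weaker one (chrX:423208-423631) had a height of 213 and rank 4914, and lay 13699 bp downstream of the start of l(1)sc. It was 4831 bp inside a transcript of CG32816 that starts within the complex. In replicate 1 it had a height of 114.8 (rank 5391) and in replicate 3 of 91.8 (rank 5476). These were the 2 positions of the complex that ranked above 5707 in both replicates. The summits with 50 bp on either side are shown on the plus strand of dm6, since they are the IDR-thresholded sites of the complex, and neither holds the Gcm word.
Upstream of ase, chrX:457916-458016: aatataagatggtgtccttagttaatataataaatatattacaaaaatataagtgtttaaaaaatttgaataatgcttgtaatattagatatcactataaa
Between l(1)sc and Pgcl, chrX:423370-423470: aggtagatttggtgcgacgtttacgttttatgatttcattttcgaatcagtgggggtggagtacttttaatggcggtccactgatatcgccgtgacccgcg

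Gcm recognises an 8-base word, searched here as ATGCGGGT, ATGCGGGC, ATACGGGT or ATACGGGC on both strands. None of the 12 pooled summits at the 8 genes had it within 100 bp (exact Clopper-Pearson 95% interval 0 to 26.5%), against 4.77% of all pooled summits and 9.76% of IDR-thresholded ones. Of pooled summits below the IDR-thresholded set, where all 12 lie, 3.59% had it. None of the 10 summits of replicate 1 or the 7 of replicate 3 had it either, and no territory of the 8 genes held the word at all, against 20.3% of territories of the same length that did. With 1 mismatch allowed outside the core, 7 of the 8 territories held it, against 93.3% of those of the same length. Under that rule 2 of the 12 pooled summits held it, the one 715 bp inside ase and the one 23 bp upstream of dpn, against 19.3% of all pooled summits. Below the IDR-thresholded set the share was 18.3%. The whole Achaete-Scute locus held 2 copies, a density of 2.10 per 100 kb, against 5.34 over X.

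One of these copies lay at a pooled summit between ac and sc, 2853 bp upstream of the start of sc and 853 bp beyond its territory. The word began 2 bp from the summit. The summit (chrX:392995-393418) had a height of 127 and rank 9584. Its peak covered the start of the noncoding RNA gene lncRNA:CR44753 (minus strand, chrX:391835-393227), and the summit and the word lay inside that gene. Replicate 1 had a summit 42 bp from it with height 83.6 and rank 8396. Replicate 3 had one 27 bp from it with height 43.7 and rank 14543. It was the only one of the 34 pooled summits in the locus with the word. Of all pooled summits 4.77% had the word, and 3.59% of those below the IDR-thresholded set, so 1 of 34 is near the background. The other copy, at chrX:432284-432291 in the transposon 3S18{}4, was 3254 bp from the nearest pooled summit. The summit with 50 bp on either side is shown on the plus strand with the word, which lies on the minus strand, in capitals.
Upstream of sc, chrX:393157-393257: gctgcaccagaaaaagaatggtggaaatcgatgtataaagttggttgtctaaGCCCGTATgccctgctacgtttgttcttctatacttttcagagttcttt

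Words of other factors were described in the same way near the gene starts, from 250 bp before to 50 bp after. The word CAGGTAG, bound by Zelda, the factor that opens chromatin of the early embryo, was present at 5 of the 8 genes (ac, sc, l(1)sc, ato and dpn), against 1.64% of all protein-coding genes (229 of 13945). sc had 3 copies, beginning 157, 128 and 119 bp before its start. The others had 1 each, beginning 77 bp before the start of ac, 123 bp before that of l(1)sc, 79 bp before that of ato and 127 bp before that of dpn. The words CAGCTG or CAGGTG, E boxes of the kind proneural proteins bind, were present at ac and ase, 2 of 8, against 25.3% of all genes. The word GAGAGAG was present at 2 of 8, sc and amos, against 5.87%, and the Gcm word at 0 of 8 against 0.954%. The word CAGGTAG was singled out after its counts had been seen, no factor that binds it was measured here, and all words were read in either orientation.

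CAGGTAG was also found near summits, within 100 bp, at 2 of the 12 pooled summits, the one at ac and the one 40 bp upstream of ato, against 1.06% of all pooled summits. The 200 bp before the start are shown for the 4 of these genes on X and 3R, on the plus strand, with copies of CAGGTAG on either strand in capitals.
ac, chrX:369831-370030: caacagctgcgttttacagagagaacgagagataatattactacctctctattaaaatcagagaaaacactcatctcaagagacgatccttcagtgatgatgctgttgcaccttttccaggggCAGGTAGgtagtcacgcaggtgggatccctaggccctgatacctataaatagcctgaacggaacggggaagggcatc
sc, chrX:395860-396059: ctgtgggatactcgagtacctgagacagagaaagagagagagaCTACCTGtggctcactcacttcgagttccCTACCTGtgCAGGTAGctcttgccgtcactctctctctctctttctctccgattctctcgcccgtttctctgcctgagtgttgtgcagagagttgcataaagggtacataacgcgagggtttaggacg
l(1)sc, chrX:409521-409720: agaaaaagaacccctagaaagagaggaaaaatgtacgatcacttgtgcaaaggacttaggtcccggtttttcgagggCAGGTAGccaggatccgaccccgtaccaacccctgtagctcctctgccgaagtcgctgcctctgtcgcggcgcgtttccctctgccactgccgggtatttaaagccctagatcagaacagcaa
ato, chr3R:8277852-8278051: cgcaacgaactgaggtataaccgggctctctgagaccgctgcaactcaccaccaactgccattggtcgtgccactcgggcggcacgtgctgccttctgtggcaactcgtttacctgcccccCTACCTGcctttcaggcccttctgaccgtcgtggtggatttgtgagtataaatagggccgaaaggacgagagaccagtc

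In the Atonal family 1 gene of 3 had a peak. At ato (FBgn0010433, chr3R:8278052-8279274, plus strand) the pooled list had summits 239 bp upstream (height 56.3, rank 21858) and 40 bp upstream (41.6, rank 27979). Replicate 3 had 1 summit, 49 bp upstream, with height 41.4 and rank 15456, and replicate 1 had none. The 239 bp position was found in neither replicate. amos (FBgn0003270, chr2L:18596136-18596921, minus strand) had its nearest pooled summit 8212 bp upstream, 111 bp from the start of CG10413, with height 1317 and rank 125. cato (FBgn0024249, chr2R:16277685-16278396, minus strand) had its nearest 15857 bp upstream, 123 bp from the start of CG7747, with height 496 and rank 1190. Both of these belong to the IDR-thresholded list, and neither lies nearest to the start of amos or cato.

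dpn (FBgn0010109, chr2R:8228971-8232330, minus strand) had the highest summit of the 8 genes. It lay 23 bp upstream of the start in the pooled list, with a height of 132, rank 9225 and a deposited −log10 q at the list's ceiling, which 31.8% of pooled peaks share. Replicate 1 had a summit 5 bp from it with height 111 and rank 5694. Replicate 3 had its summit 336 bp upstream instead, with height 50.4 and rank 12280, so that the replicates differed in position by 318 bp. In replicate 1 alone dpn would thus stand among the strongest 5707 peaks, and in replicate 3 it would not. A second pooled summit, 1189 bp upstream with height 53.6, was seen in replicate 1 and not in replicate 3.

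Set among all genes with a pooled summit, the 6 genes stood in the lower part of the distribution. Much of this follows from the absence of IDR-thresholded summits, which alone places every highest summit below 190. Of the 7139 genes bound in the pooled list, 3936 had an IDR-thresholded summit and so stood at or above that height. The 6 genes were not ranked among bound genes without such a summit. Over all genes bound in the pooled list, the share with a lower highest summit was 1.89% for ac, 4.37% for l(1)sc and 5.81% for ato. It was 20.9% for sc, 24.7% for ase and 28.7% for dpn. The median of the highest summit was 81.4 over the 6 genes and 213 over all 7139 genes bound in the pooled list. Territory length differed too, with a median of 3160 bp for the 8 genes and 4166 bp for all.

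**Figure D3:**
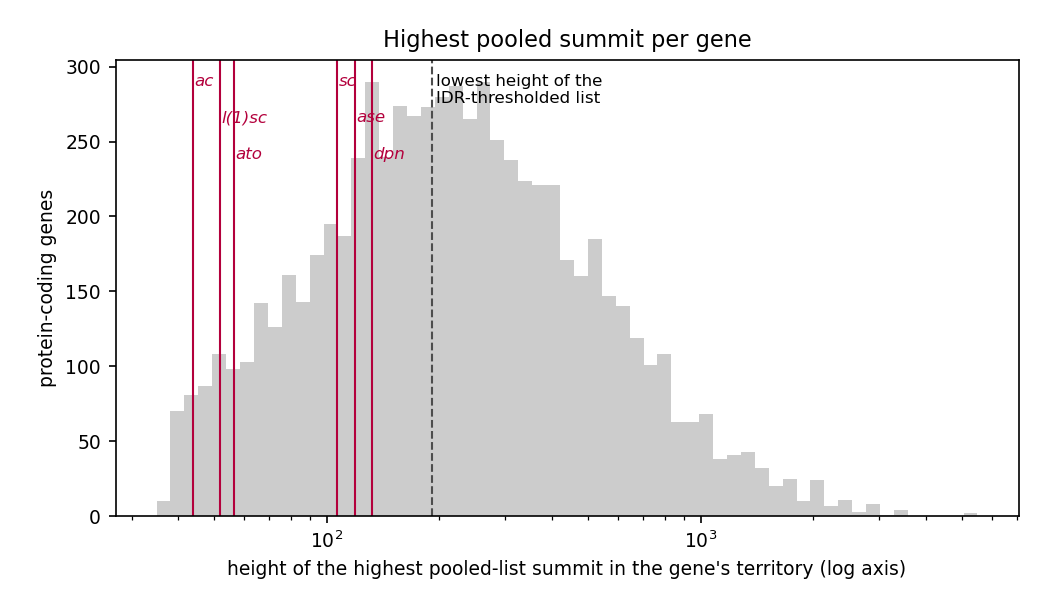
Number of protein-coding genes by the height of their highest pooled summit (grey bars, log axis), with the 6 genes that have one as red lines and the lowest IDR-thresholded height, 190, dashed. All 6 lines lie between 43.8 and 132, left of the dashed line, as must any gene without an IDR-thresholded summit.

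Distances to the nearest IDR-thresholded summit differed widely among the 8 genes. From the start of ase it was 2781 bp, from dpn 5131 bp and from amos 8212 bp. From ato it was 13156 bp, from l(1)sc 13699 bp and from cato 15857 bp. From sc it was 27360 bp and from ac 31711 bp. The median of the 8 distances was 13428 bp, and that of all genes 7366 bp. Of all genes, 30.5% had a nearer summit than ase and 83.3% a nearer one than ac, and the other 6 genes lay between these shares. Only the summit upstream of ase had its gene as the nearest transcription start. Those nearest to ac, ato, amos, cato and dpn lay within 190 bp of the starts of CG3777, Mcm2, CG10413, CG7747 and pnut.

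**Figure D4:**
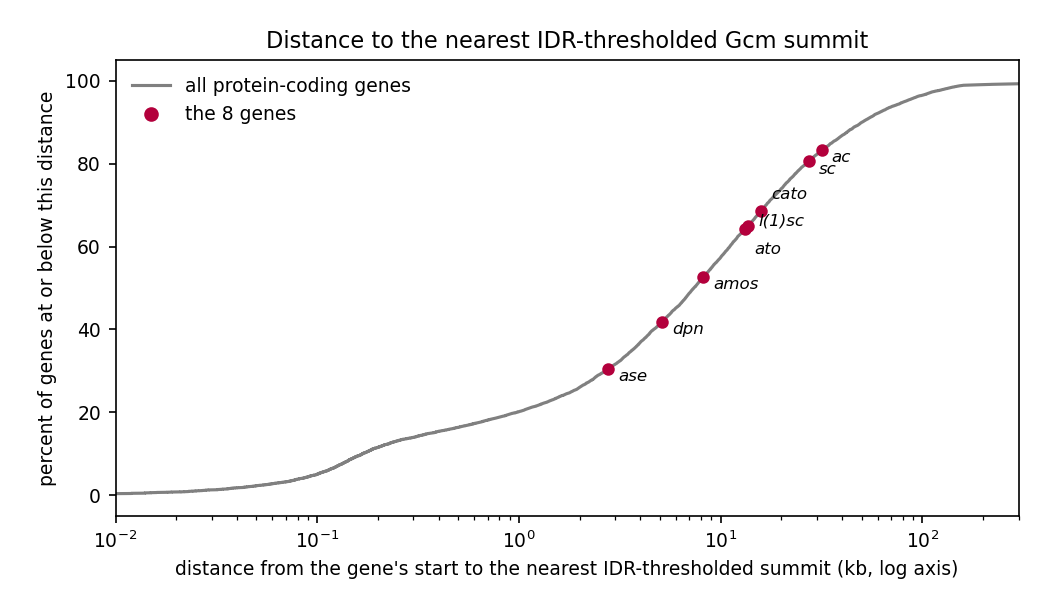
Share of protein-coding genes (grey line) whose start lies within a given distance (kb, log axis) of an IDR-thresholded summit, with the 8 genes as red points on it. The points run from ase at 2781 bp to ac at 31711 bp.

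The replicates seldom gave the same summit at these genes. Of the 12 pooled summits, 1 was found within 100 bp in both replicates, 6 in replicate 1 alone, 3 in replicate 3 alone and 2 in neither. Over all 18755 pooled summits in the same span of ranks, 43.6% were found in both and 7.51% in neither. The median height over that span was 67.8, against 55.1 for the 12, so the 2 sets are not matched on height. The difference was not tested. Within 250 bp, 4 of the 12 were found in both, against 68.0% over the same span. In the Achaete-Scute locus 11 of 34 were found in both within 100 bp, which is 32.4%, against 55.9% of all pooled summits. Without the IDR-thresholded peaks these shares were 9 of 32, or 28.1%, in the locus and 46.7% over the list. Some pooled summits come in close pairs: at sc, ase and ato a second summit lay 199 to 202 bp from the first. The most frequent gap in the whole list was also 199 bp, with pooled intervals mostly 424 bp long. Counting summits less than 250 bp apart once leaves 9 at the 8 genes.

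Genes that act with the 8 genes were described for comparison, without a test, and many of them are longer. Of 41 genes in 5 related lists, 26 had an IDR-thresholded summit, against 0 of 8 and a background of 28.2%. Their median territory was 7002 bp, against 4166 bp over all genes, so that background is not matched for length. The lists were also chosen with earlier results of these data known, so the contrast cannot count as evidence. Both partner genes were bound. emc, which encodes an HLH protein that blocks proneural proteins, had a summit 29 bp upstream of its start with height 218 in replicate 1 and 202 in replicate 3. da, for the shared partner Daughterless, had one 1610 bp upstream with heights of 208 and 175, nearest the start of mRpS7. Of the 10 Hairy/Enhancer of split relatives of dpn, 7 were bound.

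The Enhancer of split complex has 7 bHLH genes, for repressors that answer Notch. Their territories of 2769 to 3305 bp lie within the range of those of the 8 genes, though sc, ase and dpn have longer ones. Of the 7, 5 were bound, against 0 of the 8 genes and 21.4% of all genes with territories as long as those of the 8. Their highest pooled summits ranged from 131 to 1238, against 43.8 to 132 at the 6 genes that had one. Those of the 6 had to lie below 190, since none had an IDR-thresholded summit. E(spl)m7-HLH had a height of 686 in replicate 1 and no replicate 3 summit within 100 bp, though replicate 3 had a summit elsewhere in its territory. E(spl)mdelta-HLH had 621 and 454, nearest the start of CG43116, and E(spl)m3-HLH 437 and 391. These genes are neighbours on 3R, and the difference was not tested. They were set apart from the list of 10 relatives, which was chosen with earlier results of these data known. This contrast therefore cannot count as evidence either.

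Among 8 other neural bHLH genes 3 were bound, net (replicate heights 174 and 198), Fer1 (103 and 98.4) and Oli (116 and 77.4). dimm and Fer3 had no pooled summit. Of 10 genes that act with or after the proneural genes 6 were bound. These were led by the zinc finger gene chn (653 and 652), neur (322 and 277), a ubiquitin ligase gene of Notch signalling, and phyl (228 and 228), for an adaptor that acts in sensory precursors. sens, scrt, wor and sca had pooled summits and no IDR-thresholded one. Of 11 genes that regulate proneural or eye genes 8 were bound, led by ush (1977 and 1290), for a GATA cofactor, eya (209 and 186) and the homeobox gene Dr (194 and 138). Of all protein-coding genes 28.2% were bound in the IDR-thresholded list, a share not matched for length. In the order given, the median territories of these 3 lists were 4209, 16616 and 17718 bp, against 4166 bp over all genes. The territory of ush was 66341 bp long and held 21 IDR-thresholded summits. The ush summit lay nearest the start of cbt. vnd, ara and mirr had pooled summits and no IDR-thresholded one. Among the highest IDR-thresholded summits of the 26 bound genes in the 5 related lists, only those of Fer1 and eya held the Gcm word. Of all IDR-thresholded peaks 9.76% held it, so these 2 are no more than the background. Heights here are given for replicate 1 and then for replicate 3.

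**Figure D5:**
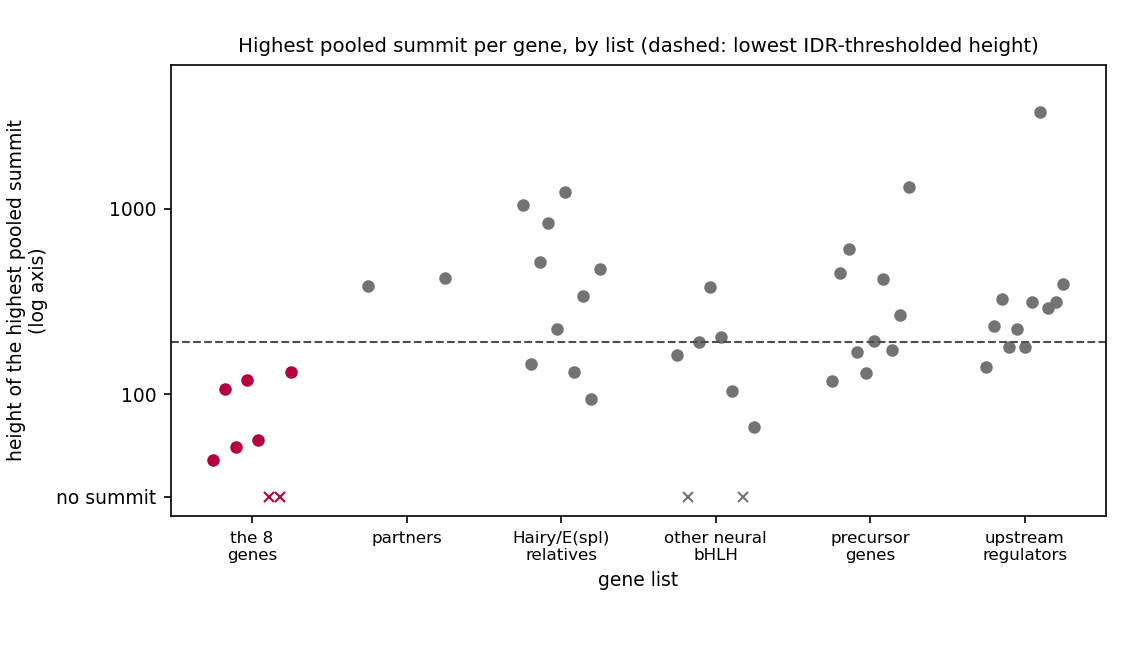
Height of the highest pooled summit (log axis) for each of the 8 genes (red) and for each gene of the 5 related lists (grey), with crosses for genes without a pooled summit. The dashed line is the lowest IDR-thresholded height, 190. All 6 red points lie below it, as must any gene without an IDR-thresholded summit, while 26 of the 41 grey genes lie above it. The lists were chosen with earlier results of these data known.

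With 5 kb of upstream sequence in place of 2 kb, 1 of the 8 genes, ase, was bound in the IDR-thresholded list, through the summit 2781 bp away. Of all genes 36.6% were bound under that rule. With each replicate's own 5707 strongest peaks in place of the IDR-thresholded list, 1 gene (dpn) was bound in replicate 1, against 29.0% of all genes, and 0 in replicate 3, against 28.2%. By gene body only, 3 of the 8 genes were bound in the pooled list, against 29.9% of all genes. In the stronger part of the pooled list, above its middle rank, 3 of the 8 were bound, against 43.7%.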

How the data were processed

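ChIP-seq peak lists of 2 replicates of 1 group were used, so no comparison between groups was made and no test was run. The authors deposited 4 lists on dm6: 1 per replicate, 1 pooled, and 1 IDR-thresholded list derived from the other 3, all with a shared control, per the deposited file descriptions. The aligner, the caller and its thresholds were not given in the sources used here. Peak height is the signal value of the deposited lists. The −log10 q-value deposited for each peak was only described. Read depth is unknown.

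Summits, given 1-based, were assigned to genes of Ensembl release 115 (BDGP 6.54), and 0 peaks lay past an arm's end. Nearest starts were sought among protein-coding transcripts only. All 8 genes had the same coordinates in RefSeq Release 6, the source of the sequences. Replicate summits matched within 100 bp. Shares have exact Clopper-Pearson and densities exact Poisson intervals. Counting was tested on artificial data with known answers. Python 3.11.15, pandas 2.3.3 and scipy 1.17.1 were used. Members, related lists and words were chosen with earlier results of these data known. Genes named were the 8 genes, protein-coding genes starting in the ac to ase locus, and up to 3 genes per related list with the highest IDR-thresholded summit. Genes nearest to other summits, and related genes without a summit, were named after their values were seen, as was the word CAGGTAG. Alternatives changed the territory, overlap rule, list depth, match distance and word.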

Additional observations from a re-analysis of the deposited data

How the results depend on the processing

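Of 48 recomputed counts, 33 stayed within 1.5 times the main count and 15 moved beyond it. Several of the 33 could not move: where the main count was 0, a narrower territory, list, window or word can only give 0. The number of the 8 genes bound in the IDR-thresholded list became 1 with 5 kb upstream and ran from 0 to 1 when 1 replicate was left out and the strongest 5707 peaks of the other were used (1 without replicate 3, at dpn), as did the number of summits there. In the pooled list 3 genes (5 summits) were bound by gene body only, against 29.9% of all genes, 3 genes (3 summits) in the stronger part of the list above its middle rank, against 43.7%, and 21 summits counted with 5 kb upstream. With the list of 1 replicate in place of the pooled list, the 8 genes held 10 summits in replicate 1 and 7 in replicate 3. In the stronger part of each list the ac to ase locus held 0 IDR-thresholded and 9 pooled summits. Summits found in both replicates numbered 4 of 12 within 250 bp, against 68.0% of all pooled summits in the same span of ranks. By overlap of intervals they numbered 6. No background is given for the 6, the 21 or the locus counts of 0 and 9, so these are described only. Allowing 1 mismatch outside the core of the Gcm word gave 2 of 12 summits, against 19.3% of all pooled summits and 18.3% of those below the IDR-thresholded set. Counting close summits once, chosen after seeing the data, gave 9 summits at the genes and 30 in the locus. Depth is unknown, so peaks below the lists' ends may exist at amos and cato.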
